A study of Mus musculus with 2 samples.

Results

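The genes described here are the NF-kappaB subunits and their inhibitors, measured in B cells that carried a miR-181b vector or a control vector. They were chosen by name, as every probe whose gene name in both scanner files was Nfkb1, Nfkb2, Rel, Rela, Relb, Nfkbia, Nfkbib, Nfkbie, Nfkbiz or Bcl3. All 10 genes were on the array, with 14 probes. Of these, 9 genes and 13 probes were measured, out of 17577 measured genes among 27670 gene names. Measured means that the scanner placed both RNAs well above background on each array. B cells came from the spleens of C57BL/6 mice by depletion of CD43-positive cells and grew in lipopolysaccharide (LPS, 25 µg/ml) and interleukin-4 (10 ng/ml). One population was transduced for 20 h with a retroviral miR181b-GFP vector and the other with the control-GFP vector, both with polybrene (8 µg/ml), and GFP-positive cells were sorted 2 days after transduction. Both groups therefore share the mitogen, the cytokine, the virus, GFP and the sort. There was 1 RNA for each vector, hybridised against the other on 2 Agilent 2-colour arrays with the dyes exchanged. The miR-181b RNA was in Cy5 on array 1 and in Cy3 on array 2. Since both arrays repeat a single RNA pair, the spread between them covers labelling, dye and hybridisation and leaves out the variation between cultures. No test between the groups is possible. Values are log2 ratios of miR-181b over control. The labels name neither the promoter that drives the miRNA nor the number of mice, and the level of mature miR-181b was not analysed here.

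NF-kappaB is a family of dimers built from proteins with a Rel homology domain. In resting cells the IkB proteins hold these dimers in the cytoplasm. Signals from the LPS receptor, CD40 or the B cell receptor activate the IkB kinase complex, IkB is degraded, and the dimers enter the nucleus. In B cells the pathway supports survival, proliferation and antibody class switching, and several of its inhibitors are themselves switched on by NF-kappaB, which closes a feedback loop.

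The miRNA is shown first, since its seed (bases 2 to 8, in capitals) is the stretch by which a miRNA mainly recognises its targets. The mature sequence is RefSeq's (GRCm38.p6). It is 24 bases long and is encoded at chr1:137966650-137966673 and chr2:38853845-38853868, on the plus strand in each case.
mmu-miR-181b-5p: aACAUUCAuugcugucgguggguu
The seed match TGAATGT stood in 393 of the 41174 probe sequences of the array (0.954%). It stood in 0 of the 14 probes of the NF-kappaB genes. A probe covers only 60 bases of a transcript, so this count says nothing of sites elsewhere in these mRNAs.

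The promoters bear on the feedback described above. RefSeq's promoter table (GRCm38.p6) covers a short window around each annotated start and held an entry for 7 of the 10 genes, matched by symbol, and not for Nfkb1, Relb and Nfkbiz. The kappaB motif, the degenerate sequence of 10 letters that NF-kappaB dimers bind, was searched on both strands. It stood in the promoters of Nfkb2, Rel, Nfkbia, Nfkbie and Bcl3, which is 5 of 7, and not in those of Rela and Nfkbib. Over all genes with an entry, 2581 of 27025 held it (9.55%), and 2779 of 32851 promoters did (8.46%). One match is shown for each gene, with the motif in capitals and the strand of the gene. The windows are chr19:46304690-46304715 (plus) for Nfkb2, chr11:23771044-23771069 (minus) for Rel, chr12:55492659-55492684 (minus) for Nfkbia, chr17:45555586-45555611 (plus) for Nfkbie and chr7:19822736-19822761 (minus) for Bcl3.
Nfkb2: atcgtcacGGGAATTCCCcccctcgg
Rel: taagcagcGGGAAATCCCcccccctc
Nfkbia: actggcttGGAAATTCCCcgcgcctg
Nfkbie: agcaaacaGGGGGATTCCggaggggc
Bcl3: ggcggcagGGGAAGTCCCgctgcccg
The motif of Nfkbia lies on the strand opposite to its gene. Nfkb2 and Rel held further matches, some of which overlap those shown. A match is a description of letters and not a binding site.

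None of the 8 measured and unsaturated NF-kappaB genes reached 1.5-fold in either direction, though Bcl3 did at -0.63 under median centring without loess. Rel was not measured, and the ratios of the saturated Nfkbia are only limits. The measured genes lay between -0.23 (Nfkb1) and 0.25 (Rela) in the mean of both arrays. The inhibitors Nfkbib and Nfkbiz were higher with miR-181b on both arrays and Nfkbie and Bcl3 were lower on both. However, the means of Nfkbib and Nfkbiz fell below 0 when the arrays were centred on their median without loess. The remaining 5 genes, which are the 4 measured subunits and the saturated Nfkbia, had opposite signs on the arrays. Thus 2 of 9 genes were higher on both arrays, against 24.4% of all measured genes, and 2 of 9 were lower on both, against 27.4%. At a mean of 1.5-fold and with equal signs on the arrays, 0 of 9 were higher or lower, against 0.819% of all measured genes higher and 0.512% lower. The saturated Nfkbia is counted here by its recorded values. The members' shares were near these backgrounds. The members' median was 0.01, and the median of all measured genes was -0.01, with the middle 90% of all genes between -0.27 and 0.32. In RNA from a cell population, fewer cells of a type and less RNA per cell cannot be told apart.

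**Figure D1:**
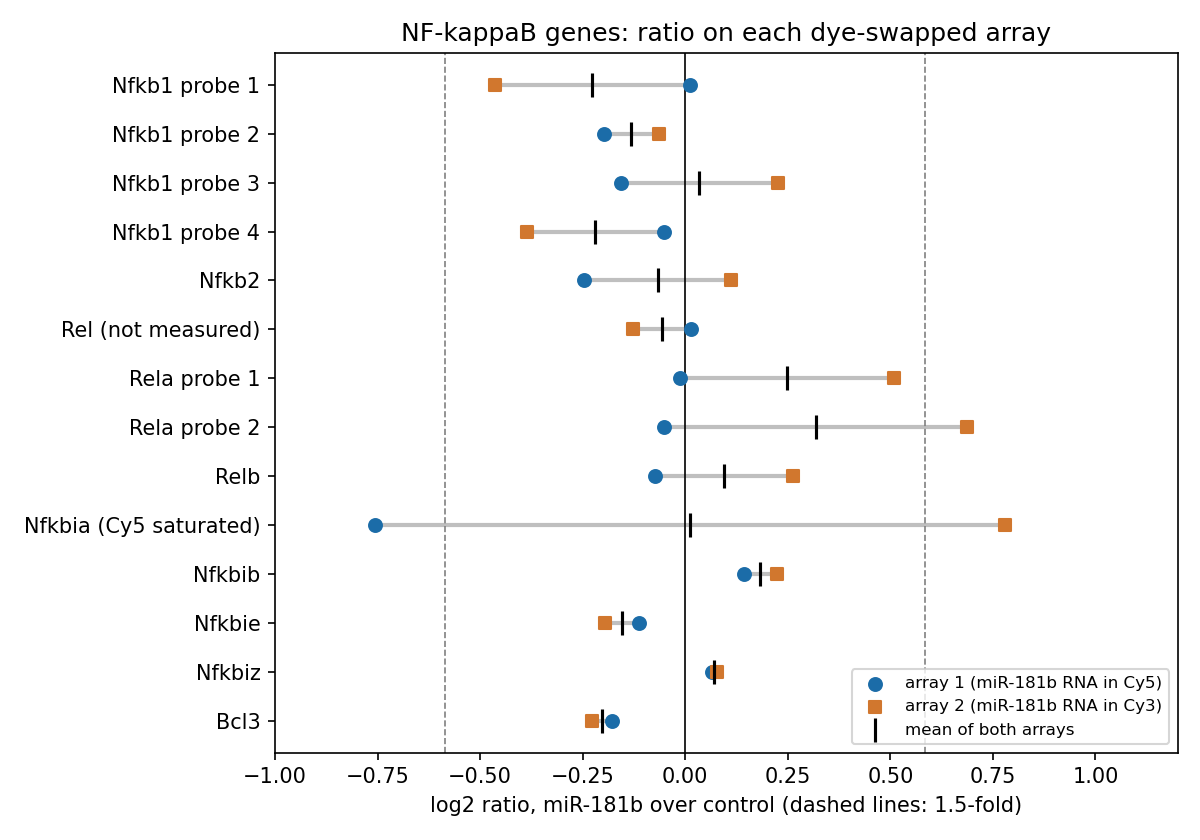
Log2 ratio of miR-181b over control (horizontal axis) for each probe of the 10 NF-kappaB genes (vertical axis). Circles are array 1 (miR-181b RNA in Cy5), squares are array 2 (miR-181b RNA in Cy3), ticks are their mean and dashed lines mark 1.5-fold. The symbols of Nfkbib, Nfkbiz, Nfkbie and Bcl3 lie close together on 1 side of 0. Those of Rela, Nfkbia and probe 1 of Nfkb1 lie far apart. Under median centring, which is not drawn, the means of Nfkbib and Nfkbiz fell below 0.

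Among the subunits, Nfkb1 (chr3:135584655-135691969) encodes p105, the precursor of the p50 subunit, which also acts as an IkB. Its first probe had an intensity of 2785 and 2216 for the miR-181b RNA on arrays 1 and 2, against 2765 and 3056 for the control RNA. The RNAs were nearly equal on array 1, and the miR-181b RNA was lower on array 2. The log2 ratios were 0.01 and -0.46, with a mean of -0.23. This probe was printed in 10 spots on each array, and the SD among them was 0.05 on array 1 and 0.03 on array 2. The spots ran from -0.05 to 0.07 on array 1 and from -0.54 to -0.44 on array 2, so they did not overlap between arrays. The spread among spots of an array was thus far smaller than the step between arrays, where the mean lay 0.24 from either value.

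Nfkb1 had a further 3 probes, designed on cDNA clones. Probe 2 gave -0.20 and -0.06, probe 3 gave -0.16 and 0.23, and probe 4 gave -0.05 and -0.38. Probes 2 and 4 were lower with miR-181b on both arrays, at means of -0.13 and -0.22, and probe 3 was split, at 0.03. The probes of Nfkb1 therefore did not share a sign. With its probes averaged, Nfkb1 was lower on both arrays, at a mean of -0.14 with an SD between arrays of 0.05. Whether this gene had the same sign on both arrays thus depended on the choice of probe, and no change was established.

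Nfkb2 (chr19:46300994-46312400) encodes p100, the precursor of p52, which holds RelB-containing dimers inactive until it is processed. Its intensities were 5901 and 6815 in the miR-181b RNA, against 7005 and 6305 in the control RNA. The miR-181b RNA was the lower on array 1 and the higher on array 2. The ratios were -0.25 and 0.11, with a mean of -0.07.

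Rela (chr19:5637442-5648134) encodes p65, the subunit that carries a strong activation domain and forms the classical dimer with p50. Its first probe had intensities of 7602 and 9430 in the miR-181b RNA, against 7672 and 6623 in the control RNA. The ratios were -0.01 and 0.51, with a mean of 0.25. The RNAs were nearly equal on array 1, and the miR-181b RNA was the brighter on array 2. The other probe, printed in 10 spots, had 459 and 588 in the miR-181b RNA, against 476 and 365 in the control RNA. Its ratios were -0.05 and 0.69, with a mean of 0.32. The SD among its spots was 0.05 on each array, with spots from -0.16 to 0.03 on array 1 and from 0.61 to 0.77 on array 2. Both Rela probes thus split by array in the same way, and as for Nfkb1 the repeat spots of an array did not show the size of that step.

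Relb (chr7:19606217-19629438) encodes RelB, the partner of p52 in the alternative pathway that CD40 and the BAFF receptor feed. Its intensities were 9343 and 10397 in the miR-181b RNA, against 9830 and 8661 in the control RNA. The ratios were -0.07 and 0.26, with a mean of 0.10, and the arrays disagreed in sign. Rel (chr11:23736847-23770969) encodes c-Rel, which B cells need to proliferate after stimulation. Its only probe was well above background in the miR-181b RNA on 1 array (array 1) and in the control RNA on 2, so Rel counted as not measured. Its intensities were 92.9 and 84.9 in the miR-181b RNA, against 92.0 and 92.8 in the control RNA, and its ratios were 0.01 and -0.13. These values lie near background, and a difference was not detectable at this signal.

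Of the classical inhibitors, Nfkbia (chr12:55489409-55492647) encodes IkB-alpha, which NF-kappaB itself induces and which ends a round of activation. Its intensities were 45440 and 74606 in the miR-181b RNA, against 76778 and 43484 in the control RNA. The Cy5 signal was saturated on both arrays, that of the miR-181b RNA on array 1 and that of the control RNA on array 2. A saturated signal is a lower limit, so the ratio of -0.76 on array 1 is a lower limit and the ratio of 0.78 on array 2 an upper limit. The mean of these recorded values was 0.01, the true gap between the arrays may be smaller, and the change of Nfkbia could not be measured.

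Nfkbib (chr7:28758251-28766644) encodes IkB-beta, an inhibitor that is degraded and replaced more slowly than IkB-alpha. Its intensities were 6743 and 7138 in the miR-181b RNA, against 6110 and 6113 in the control RNA. Both values of the miR-181b RNA were above both of the control RNA. The ratios were 0.14 and 0.22, with a mean of 0.18 (1.14-fold higher), and -0.20 under median centring. Nfkbie (chr17:45555700-45563169) encodes IkB-epsilon, an inhibitor of dimers that hold RelA or c-Rel. Its intensities were 11473 and 11246 in the miR-181b RNA, against 12411 and 12870 in the control RNA. Here both values of the miR-181b RNA were below both of the control RNA. The ratios were -0.11 and -0.19, with a mean of -0.15 (1.11-fold lower), and -0.55 under median centring. Neither gene differed by as much as 1.5-fold.

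Nfkbiz and Bcl3 are the nuclear members of the inhibitor family, which bind p50 or p52 dimers on DNA and can activate as well as repress. Nfkbiz (chr16:55811375-55838954) encodes IkB-zeta, which LPS induces. Its intensities were 7242 and 6409 in the miR-181b RNA, against 6926 and 6071 in the control RNA. The arrays differed more from each other than the RNAs did, but the ratio within each array was alike. The ratios were 0.06 and 0.08, with a mean of 0.07 (1.05-fold higher), and -0.31 under median centring. Bcl3 (chr7:19808462-19822824) encodes a coactivator of p50 and p52 that was found at a translocation in B cell leukaemia in humans. Its intensities were 29874 and 28197 in the miR-181b RNA, against 33807 and 33004 in the control RNA. Both values of the miR-181b RNA were again below both of the control RNA. The ratios were -0.18 and -0.23, with a mean of -0.20 (1.15-fold lower), and -0.63 under median centring, the one setting with both arrays in which a member passed 1.5-fold.

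**Figure D2:**
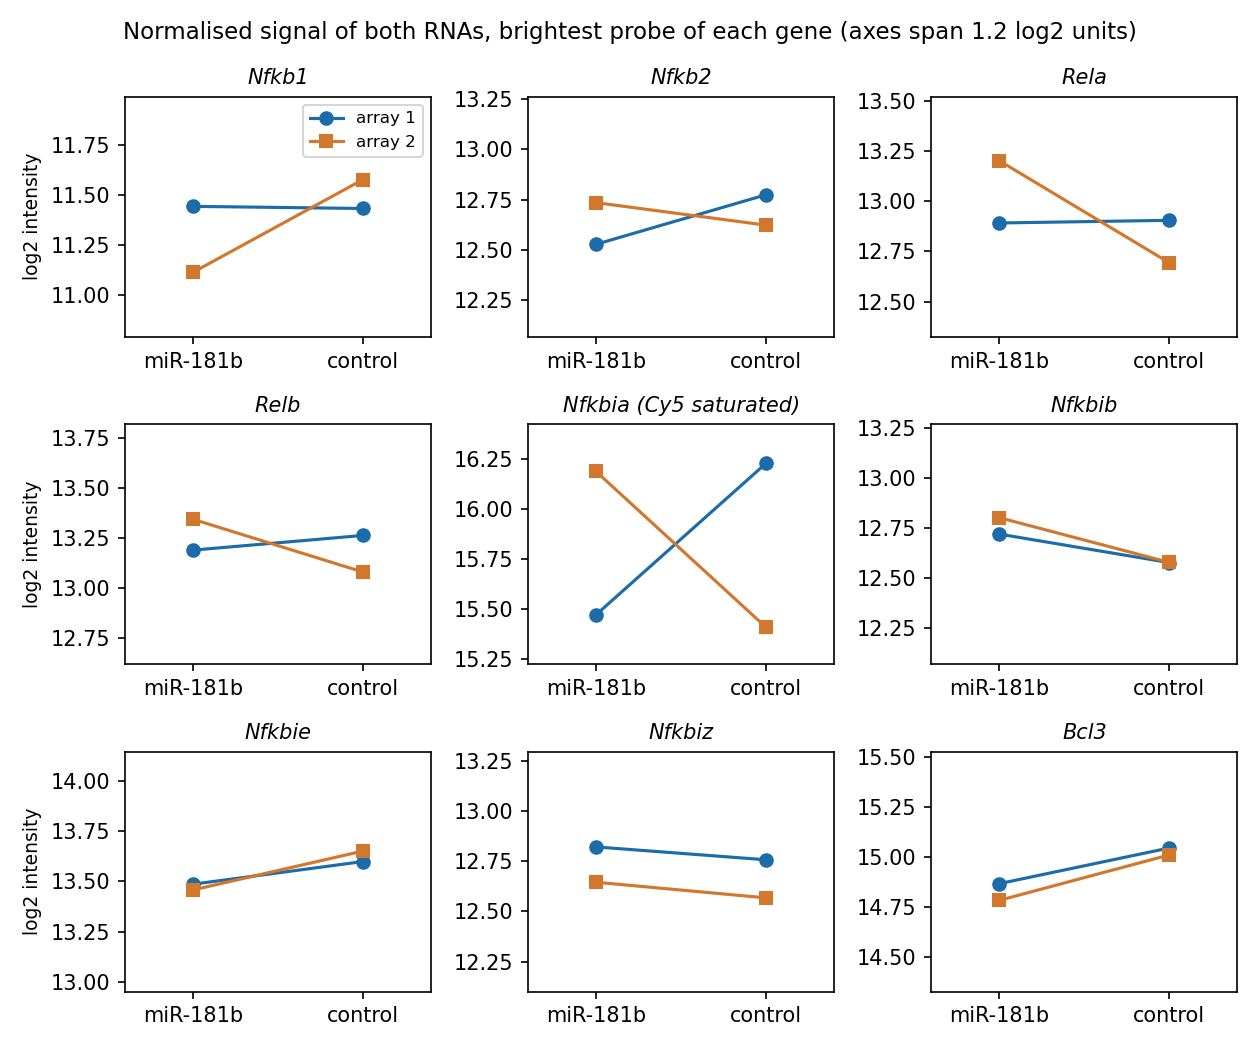
Log2 intensity (vertical axis) of the brightest probe of each measured NF-kappaB gene in the miR-181b RNA and in the control RNA, after loess and quantile normalisation of mean brightness between arrays. Circles are array 1 and squares array 2, lines join the RNAs of an array, and each panel spans the same range, so that slopes can be compared. Lines of Nfkbib, Nfkbie, Nfkbiz and Bcl3 slope the same way on both arrays, and those of Nfkb1, Nfkb2, Rela, Relb and the saturated Nfkbia slope in opposite ways.

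On dye-swapped arrays, opposite signs mean that the same dye was the brighter each time. In Nfkb2, Rela and Relb the RNA in Cy3 was the brighter on both arrays, whichever vector it came from. In the first probe of Nfkb1 the RNA in Cy5 was the brighter. On array 1, however, the RNAs were nearly equal for Rela (-0.01) and for this probe (0.01). Probe 3 of Nfkb1 (-0.16 and 0.23) had the opposite order of dyes, so the gene had no single order. For Nfkbia the order of the dyes is not known, because Cy5 was saturated. Over the members, array 1 had a median of -0.07 and array 2 one of 0.11. The distance of the arrays from their mean had a median of 0.17 over the members and of 0.09 over all genes. The members are bright genes, with 1 in brightness decile 8 of all measured genes, 5 in decile 9 and 3 in decile 10. Over all genes of these 3 deciles the distance had medians of 0.11, 0.10 and 0.15, and 2630 of 5274 genes (49.9%) had opposite signs. Among the 4834 genes of deciles 8 to 10 that were not saturated, 2257 (46.7%) had opposite signs. The Pearson correlation of the arrays across genes was 0.23 in decile 8 and 0.28 in decile 9. In decile 10 the ratios of the arrays ran against each other, at -0.38, and over all 17577 genes the correlation was 0.03. These are descriptions over genes that share both arrays and both dyes. Without Nfkbia, the 8 unsaturated members had a median of 0.00, and 4 of them had opposite signs.

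**Figure D3:**
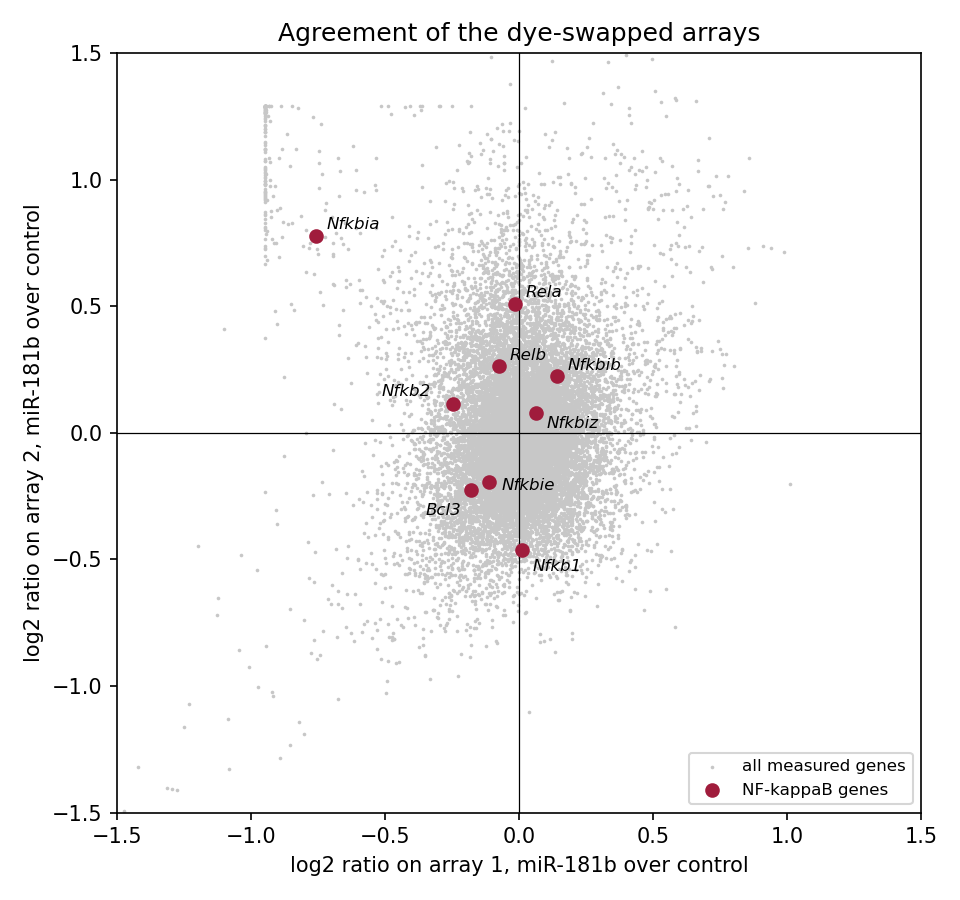
Log2 ratio of miR-181b over control on array 1 (horizontal axis) and on array 2 (vertical axis), for all 17577 measured genes (grey) and the 9 measured NF-kappaB genes (red). Genes with the same sign on both arrays lie at the lower left and upper right, which hold 2 members each, and 13 genes lie outside the axes. Nfkbia stands near the column of saturated genes at the upper left.

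The centring of the arrays changed the sign of 5 of the 9 measured members (Rela, Relb, Nfkbia, Nfkbib and Nfkbiz). Loess takes out a trend of the ratio with brightness. Centred on the median alone, 8 members were lower on both arrays and 0 higher. The shares of all genes lower or higher on both arrays in this setting are not given here. These counts are therefore not a result about the members. The members then had a median of -0.43. This median is the value of the saturated Nfkbia, between Nfkb2 at -0.45 and Nfkbiz at -0.31. Comparisons of it with other medians therefore rest on a saturated signal. The median of all genes was then -0.20, so the members stood at -0.22 relative to it. That of all genes in deciles 8 to 10, where every measured member lies, was -0.38. Without loess the median was lower in each brighter decile than in the one before it, and it was -0.40 in decile 10, against 0.04 in decile 1.

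Genes that carry signals to NF-kappaB, its target genes and the NFAT relatives of its subunits were described from 10 lists with 106 genes, of which 104 were measured. Of these, 20 were higher on both arrays, 27 were lower on both and 57 had opposite signs, against 24.4%, 27.4% and 48.2% of all measured genes, and 1 passed 1.5-fold. Pooled over the lists, these shares were near those of all genes, but single lists varied. Opposite signs, for instance, ran from 14.3% of the LPS receptor and adaptors to 90% of the IKK and TAK1 kinases. The median of the 104 genes was 0.01, close to that of all genes. The medians of the 10 lists lay on both sides of 0, but under median centring all of them were below 0, from -0.55 to -0.20, and with scaling between arrays that of the TNF receptor family arm was at -0.01. Of the 14 genes of the LPS receptor and its adaptors, 8 were higher on both arrays and 4 lower, and the median of 0.10 (array 1, 0.05, and array 2, 0.11) turned to -0.20 under median centring. Ticam1, the adaptor of the endosomal branch of the LPS receptor, was 0.05 and 0.76. Irak3, a kinase-like inhibitor of that receptor's signalling, was 0.05 and 0.64, and Tirap, the adaptor that brings Myd88 to the membrane, was 0.43 and 0.16. All of them stayed on 1 side of 0 with large steps between the arrays.

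Of 11 measured genes of the TNF receptor family arm, 4 were higher on both arrays and 2 lower, against 24.4% and 27.4% of all measured genes. The median of this arm was 0.01. Cd40, the receptor for T cell help, had ratios of 0.21 and 0.29. Ripk1, a kinase that serves as a scaffold below the TNF receptor, had 0.08 and 0.28, and Birc2, a ubiquitin ligase that limits the alternative pathway, had -0.25 and -0.12. The 4 genes of the B cell receptor arm had a median of -0.17.

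Of the IKK and TAK1 kinases 9 of 10 had opposite signs, against 48.2% of all measured genes, and their median was at -0.09 on array 1 and at 0.27 on array 2. Tab3, which tethers TAK1 to ubiquitin chains, was the exception at -0.13 and -0.37. Of 11 ubiquitin editors, which trim or build the chains that activate these kinases, 5 were lower on both arrays, 0 were higher and the median was -0.09. Over all measured genes, 27.4% were lower on both arrays and 24.4% higher. Tnfaip3, the feedback inhibitor A20, had ratios of -0.29 and -0.03, and Tnip2, an A20-binding protein, had -0.12 and -0.28. Otud7b, a deubiquitinase of the alternative pathway, had -0.11 and -0.37, while another of its probes had a mean of 0.05.

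The ligase that marks IkB for degradation is built around an F-box protein, for which there are 2 genes. Fbxw11 was lower with miR-181b on both arrays, at -0.28 and -0.39, but another of its probes averaged -0.03. Btrc was 0.01 and 0.63, and Skp1, the adaptor of the ligase, was -0.02 and -0.16. The 2 F-box genes thus lay on opposite sides of 0, each with its own uncertainty. Among 6 nuclear import receptors, 1 was higher on both arrays (Kpna2, 0.04 and 0.13) and 1 lower (Kpna6, -0.02 and -0.14), but the other probe of Kpna6 averaged 0.18. Among 9 other IkB-like proteins and RelA regulators, 3 were lower on both arrays and 0 were higher, with a median of -0.04. For comparison, 27.4% of all measured genes were lower on both arrays and 24.4% higher. Nkap had ratios of -0.16 and -0.13.

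Downstream, 29 of 30 listed NF-kappaB target genes were measured. Of these, 6 were higher on both arrays, 6 were lower and 17 had opposite signs, against 24.4%, 27.4% and 48.2% of all measured genes. The median of the targets was 0.04, from -0.09 on the first array and 0.29 on the second. The only gene past 1.5-fold was Ier3, a stress response gene, whose intensities were 352 and 340 in the miR-181b RNA, against 564 and 595 in the control RNA. Its ratios were -0.68 and -0.81. This count depended on the processing, since 2 target genes passed with the scanner's log ratio and 4 under median centring. Under median centring 1 gene of the B cell receptor arm and 1 of the IkB ligase also passed. Among all 17577 measured genes, 226 were at least 1.5-fold higher and 203 lower with the scanner's log ratio. Under median centring 6 of them were higher and 908 lower. Irf4, a transcription factor of activated B cells and plasma cells, had 0.18 and 0.55, and Ccl22, a chemokine, had 0.24 and 0.38. The targets therefore had values on both sides of 0, and 6 of the 29 were saturated.

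**Figure D4:**
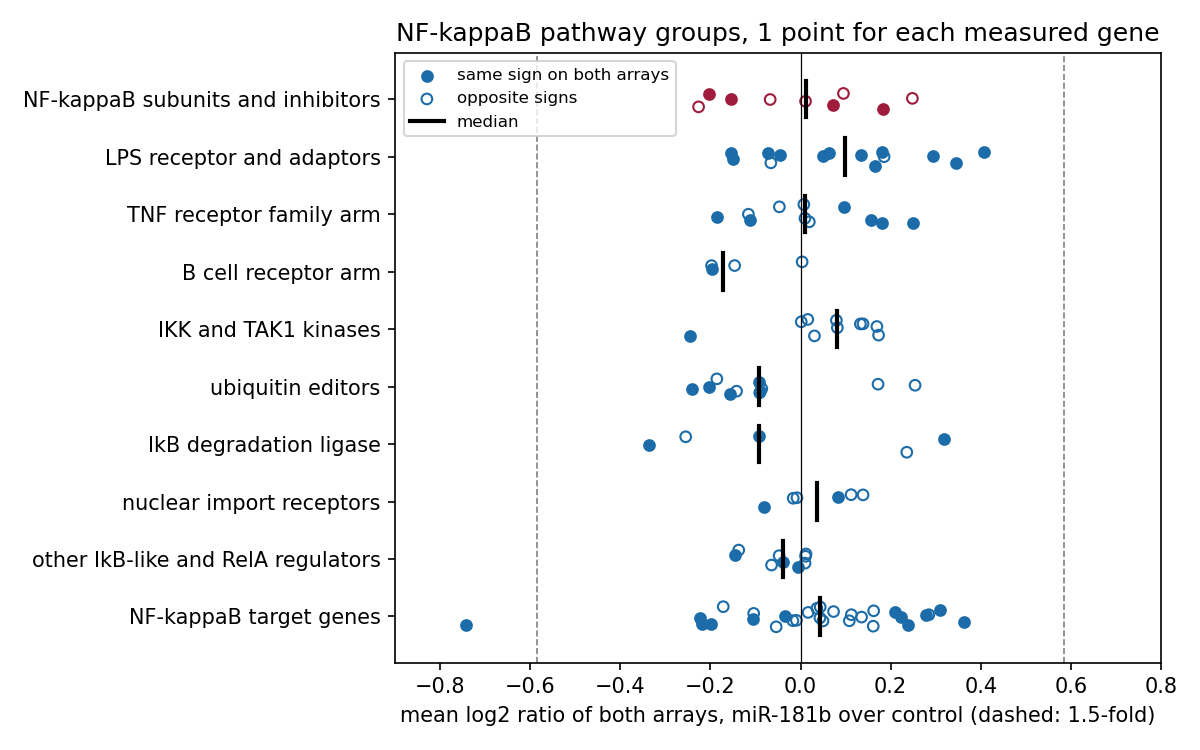
Mean log2 ratio of both arrays (horizontal axis) for each measured gene of the NF-kappaB pathway groups (vertical axis), with the subunits and inhibitors in red. Filled circles have the same sign on both arrays, open circles have opposite signs, bars are group medians and dashed lines mark 1.5-fold. The group medians lie between -0.17 and 0.10, and Ier3 among the target genes is the only point past a dashed line.

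The label of B cells was checked against markers. All 9 listed B cell genes were measured, 3 of them saturated, and their summed intensity was 208881 and 373297 in the miR-181b RNA, against 322090 and 184738 in the control RNA. Their medians of -0.38 on array 1 and 0.77 on array 2 ran with the dyes, in the same order as those of the members. Only Cd79a, a subunit of the B cell receptor named after its values were seen, had the same sign on both arrays, at 0.16 and 1.56 with a mean of 0.86, past 1.5-fold. The 7 T cell markers summed to 5231 and 4751 in the miR-181b RNA, against 5529 and 5456 in the control RNA. Most of this was Lck alone, at 4127 and 3651 in the miR-181b RNA and 4511 and 4367 in the control RNA. The 6 macrophage markers summed to 4150 and 4057 in the miR-181b RNA, against 3997 and 4082 in the control RNA. Of other cell types, 4 of 5 dendritic, 3 of 5 natural killer, 1 of 5 granulocyte and mast cell, 1 of 4 erythroid and 3 of 4 stromal markers were measured. These sums mix probes and give no share of cells, and their part in the members' values was not tested.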

How the data were processed

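The authors deposited scanner files made with Agilent Feature Extraction (version 9.1.3.1 in the file headers). Per the file headers, spot intensity (mean) and local background intensity (median) were extracted from the scan of each dye without correction. The deposited log10 values set Cy5 over Cy3, and the software had computed them from signals corrected for background and dye trend, per the file headers. From the intensities, limma 3.58.1 (R 4.3.3) gave log2 ratios by normexp (offset 50) and loess within each array with control spots at weight 0, and the sign was turned to miR-181b over control. Printed intensities follow a further Aquantile step between arrays. Outlier spots were left out (7 on array 1, 21 on array 2), spots of a probe were averaged, and a gene is its brightest measured probe. In a channel, 64.7% to 67.7% of the spots stood well above background. Of 41174 probes, 8455 matched no RefSeq gene and kept the file's name. The array's genome build is not given in the sources used here, so gene positions are RefSeq's (GRCm38.p6) by symbol. All 10 members were named, and from each pathway list up to 3 genes of equal sign on the arrays with the largest means, though some genes that this rule names are not reported here. The members and lists were chosen with earlier results of these data known. Precision is limited by the number of arrays. The steps were tested on simulated data.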

Additional observations from a re-analysis of the deposited data

How the results depend on the processing

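Median centring without loess moved the most results. The members' median became -0.43, which is the value of the saturated Nfkbia. Then 0 members were higher and 8 lower on both arrays, and 1 (Bcl3, -0.63) passed 1.5-fold. The shares of all genes lower or higher on both arrays in this setting are not given here. Among all genes, 6 were at least 1.5-fold higher and 908 lower. Against 144 and 90 genes with loess, the scanner's log ratio gave 226 higher and 203 lower. On single arrays the members' median ran from -0.07 to 0.11, the number higher from 3 to 6 and the number lower from 3 to 6. Then 1 member had a recorded value past 1.5-fold on each array alone, which was Nfkbia at -0.76 and 0.78, but its Cy5 signal was saturated and these limits show no change. The number of all genes at least 1.5-fold higher ran from 104 to 884, and of those lower from 258 to 278. The members' counts were kept within 1 gene under no background correction, the scanner's log ratio, scaling between arrays, no filter on dim probes, saturated probes left out and a gene's probes averaged, with 0 members past 1.5-fold in each. In these settings the members' median ran from -0.11 to 0.01. With a gene's probes averaged, 3 members were lower on both arrays, as Nfkb1 joined Nfkbie and Bcl3. The cause of these shifts was not tested. The deposited table of log ratios was not run as an alternative, since its row identifiers matched no probe column. No paired analysis was possible because both arrays carry the same pair of RNAs. Signal near background limits Rel, and saturation limits Nfkbia.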

Other observations

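The NFAT proteins share a Rel homology domain with the NF-kappaB subunits and pair with other factors after calcium signals. All 5 listed NFAT genes were measured, and their median was -0.06, from -0.25 on the first array and -0.02 on the second. Of these, 2 were lower with miR-181b on both arrays, 0 were higher and 3 had opposite signs, against 27.4%, 24.4% and 48.2% of all measured genes. Nfatc3 had ratios of -0.36 and -0.08, with intensities of 3357 and 3198 in the miR-181b RNA, against 4303 and 3369 in the control RNA. Another of its probes averaged -0.01. Nfatc2 had -0.09 and -0.02 at a low signal. None of the NFAT genes reached 1.5-fold.

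The measured NF-kappaB genes with a kappaB motif in their promoter were set beside those without one, a comparison chosen after the values were seen. Nfkb2, Nfkbia, Nfkbie and Bcl3, which hold a match, had means of -0.07, 0.01, -0.15 and -0.20. Rela and Nfkbib, whose promoter entries hold none, had 0.25 and 0.18. Nfkbia was saturated, so its ratio gives no position in this order. On array 1 Nfkb2, Nfkbie and Bcl3 had -0.25, -0.11 and -0.18, against -0.01 and 0.14 for Rela and Nfkbib. On array 2 they had 0.11, -0.19 and -0.23, against 0.51 and 0.22. With so few genes the difference was not tested.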
